A study of Saccharomyces cerevisiae with 6 samples.

Results

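The DNA eluted from gel section B of a Topo-seq experiment (Topo-seq-B) was compared with the nucleosome DNA library before any selection on the gel (NucLib). The 9126 fragments compared were those with 10 or more reads, summed over 2 sequencing runs, in each of the 2 conditions. They came from 220689 distinct fragments found in any of the 6 deposited lists, matched by chromosome, start and end, and fell into 4584 loci, where a locus is a chain of fragments that overlap by 50 bp or more. All samples derived from 1 pool of Saccharomyces cerevisiae FY251 transformants (a MATa strain with the his3-∆200, leu2-D1, trp1-∆63 and ura3–52 alleles), in which each circular YCp1.3 minichromosome carried 1 fragment of mono-nucleosomal DNA released with micrococcal nuclease. For Topo-seq-B the circles were run once in agarose and the lower part of the overlapping topoisomer ladders was eluted and amplified, and the matching upper part was section A (Topo-seq-A). The 2 runs of a condition were sequencing lanes of the same amplified DNA, so the p-values given here cover sequencing error only and not a repeat of the gel.

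A nucleosome wraps DNA in a left-handed superhelix around an octamer of histones, and each nucleosome in a closed circle lowers the linking number (Lk) that remains after topoisomerases relax the rest. Circles of equal length that restrain more negative supercoils end up with a lower Lk and run at a different position in the gel, where the topoisomers of 1 circle form a ladder. The lower section was cut to hold the topoisomers with the more negative Lk difference (∆Lk). Insert length also changes the speed of a circle and the phase of its ladder. Each result below is therefore given with length in view. The values below are log2 of the share of section B reads over the share of library reads, called log2 B/library.

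The fragments on which the comparison turned are shown as the reference strand of the R64 assembly (RefSeq), 5′ to 3′, with each AA and TT step in capitals, because AA/TT frequency had the strongest relation to log2 B/library among the 10 strand-symmetric dinucleotides. They comprise the most abundant fragment of all (LPX1), the fragment that gained most among the 10 most abundant loci (ERC1), and pairs of similar length that went opposite ways. Capitals made up a median of 23.5% of the bases in fragments called higher in section B and 30.3% in fragments called lower, with 27.7% over all 9126.
LPX1, chrXV:480630-480787: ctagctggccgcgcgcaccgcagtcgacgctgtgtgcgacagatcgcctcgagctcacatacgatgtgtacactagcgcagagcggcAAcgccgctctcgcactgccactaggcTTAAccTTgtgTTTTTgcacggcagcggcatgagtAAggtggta
ERC1, chrVIII:174448-174586: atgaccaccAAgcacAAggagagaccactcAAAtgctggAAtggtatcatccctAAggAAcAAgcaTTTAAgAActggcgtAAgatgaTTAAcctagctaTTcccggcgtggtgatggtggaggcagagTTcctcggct
ADE16, chrXII:199722-199871: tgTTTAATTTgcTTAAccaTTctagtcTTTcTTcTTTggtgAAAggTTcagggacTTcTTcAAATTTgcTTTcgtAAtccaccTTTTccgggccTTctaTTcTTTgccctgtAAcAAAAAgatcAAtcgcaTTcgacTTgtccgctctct
BMH2, chrIV:654068-654214: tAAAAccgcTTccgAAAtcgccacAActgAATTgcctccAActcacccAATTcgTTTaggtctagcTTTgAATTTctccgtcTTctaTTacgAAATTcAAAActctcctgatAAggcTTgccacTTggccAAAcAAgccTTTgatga
SLY1, chrIV:838478-838608: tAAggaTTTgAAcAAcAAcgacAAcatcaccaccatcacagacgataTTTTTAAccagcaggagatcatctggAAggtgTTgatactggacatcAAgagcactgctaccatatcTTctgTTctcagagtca
YLR278C, chrXII:700733-700861: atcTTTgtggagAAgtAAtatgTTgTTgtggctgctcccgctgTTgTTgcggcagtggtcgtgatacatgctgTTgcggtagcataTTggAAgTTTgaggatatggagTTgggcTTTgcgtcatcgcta
GLY1 upstream region, chrV:68801-68866: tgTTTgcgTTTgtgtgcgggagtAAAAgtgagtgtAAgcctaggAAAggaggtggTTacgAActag
ELP3, chrXVI:385234-385300: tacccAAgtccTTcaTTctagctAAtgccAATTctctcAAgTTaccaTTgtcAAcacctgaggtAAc
left end of chromosome III, chrIII:187-352: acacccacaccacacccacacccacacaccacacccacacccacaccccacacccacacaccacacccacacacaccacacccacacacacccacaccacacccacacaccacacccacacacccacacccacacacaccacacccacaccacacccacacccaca
Capitals held 44.0% of the bases in the ADE16 fragment, which gained in section B, and 40.1% in the BMH2 fragment, which lost. These 2 sequences thus went opposite ways with a like share of AA and TT. The chromosome III fragment is the C-rich strand of telomeric repeats and has no AA or TT step.

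The section B lists summed to 1480629 and 1865197 reads and the library lists to 851697 and 1748161 reads. Each list stopped at 65536 lines in falling order of count, so these totals leave out rarer fragments. The 9126 fragments held 83.5% of section B reads and 91.4% of library reads, and 9071 of them stood in all 4 lists. Across fragments, log2 reads of the 2 runs correlated with r = 0.969 in section B and 0.963 in the library (fragments are not independent replicates). Some 1.31 to 1.43 times the variance of pure counting separated the 2 runs of a condition.

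More fragments lost than gained. The median log2 B/library was −0.49, and 32.5% of fragments lay above 0. For the same fragments the median log2 of section A share over library share was −0.53 (313 had no section A reads and were set to 0.5). In the edgeR quasi-likelihood test 1586 of 9126 fragments were higher in section B, which is 17.4%, and 3649 were lower, which is 40% (Benjamini-Hochberg adjusted p under 0.05). These percentages are the background for the counts of each class below. They depend on the scaling. Trimmed-mean (TMM) factors in place of list totals moved every value up by 0.49 and gave 2354 higher and 2010 lower, so 53.9% of calls were gains instead of 30.3%. DESeq2 gave 1502 higher and 977 lower, or 60.6% gains. Values between fragments and between classes do not depend on this shift, but the position of 0 does.

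Fragment length separated the fragments that gained from those that lost. Mean fragment length, weighted by reads, was 129 bp in both section B runs, against 142 and 143 bp in the library runs. Fragments under 140 bp took 56.5% and 56.1% of the reads in section B, against 31.7% and 30.7% in the library. Fragments of 140 to under 160 bp, which include the nucleosome core length, took 36.6% and 37.0% of section B reads, against 58.6% and 59.7% of library reads. The 2 conditions did not overlap in any of these shares.

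**Figure D1:**
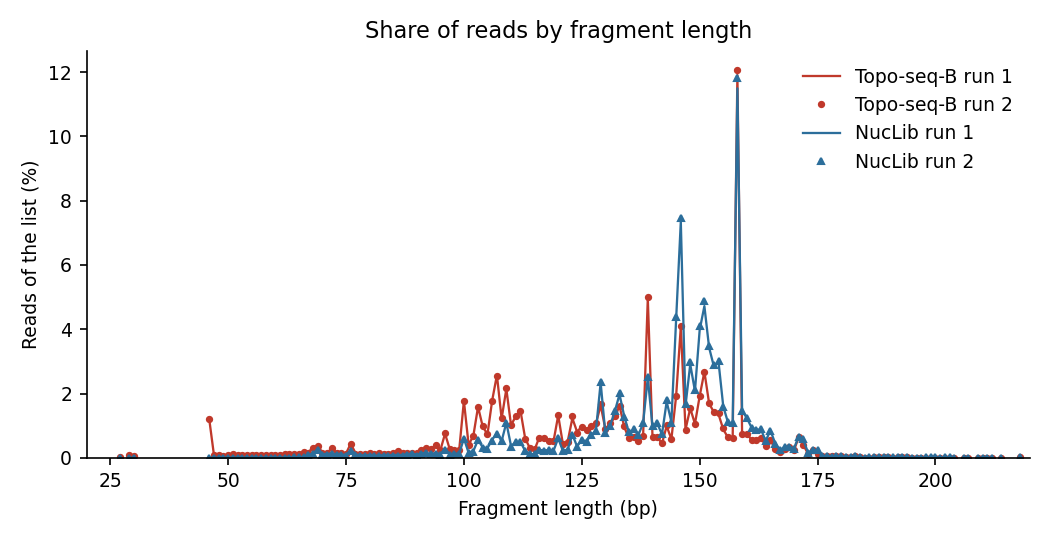
Percent of the reads of each list (y axis) by fragment length in bp (x axis), for lengths with 100 or more reads in each condition. Lines are run 1 and symbols run 2 of Topo-seq-B (red) and NucLib (blue). Below 129 bp the section B runs lie above the library runs, and between 140 and 157 bp below them, while the peak at 158 bp, the LPX1 fragment, is of like height in both.

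Summed by length, 170 lengths from 27 to 218 bp could be tested, of which 89 (52.4%) were higher and 57 (33.5%) lower in section B. The shortest length called lower was 129 bp, and of the 86 lengths below it 85 were higher by the edgeR test. Of the 73 lengths from 140 bp on, 49 were lower and 1 was higher. From 130 to under 140 bp, 3 lengths were higher and 7 lower. Single inserts made up a large part of the reads at some lengths. At 129 bp the YLR278C fragment held 23.0% of section B reads and 54.2% of library reads of that length. The 86 fragments of 129 bp left without the minor fragments described below had a median log2 B/library of 0.25, with 28 higher and 7 lower. The call at 129 bp thus did not hold for most fragments of that length. At 139 bp the ERC1 fragment held 85.8% of section B reads and 58.4% of library reads of that length, and at 158 bp the LPX1 fragment held 93.4% of section B reads and 86.8% of library reads.

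Counted by fragment, those under 140 bp had a median log2 B/library of 0.36 and those of 140 bp or more −0.83, a difference of 1.19 (1.26 in run 1 and 1.21 in run 2). Of 3659 fragments under 140 bp, 1417 were higher and 523 lower. Of 5467 fragments of 140 bp or more, 169 were higher and 3126 lower. The change with length was not a straight line. Medians were 0.64 at 60 to under 80 bp, 0.51 at 80 to under 100 bp, 1.11 at 100 to under 110 bp, 1.1 at 110 to under 120 bp and 0.48 at 120 to under 130 bp. They then lay at −0.30 at 130 to under 140 bp, −0.93 at 140 to under 150 bp, −0.92 at 150 to under 160 bp, −0.64 at 160 to under 170 bp and −0.28 at 170 to under 180 bp. The losses were thus deepest around core length, and longer fragments were less depleted.

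By single lengths, the highest median among those with 20 or more fragments was 1.77 at 114 bp (41 fragments, 35 higher and 0 lower). The lowest was −1.1 at the length of DNA in a canonical nucleosome core (199 fragments, 2 higher and 154 lower). These medians leave out the minor fragments described below.

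**Figure D2:**
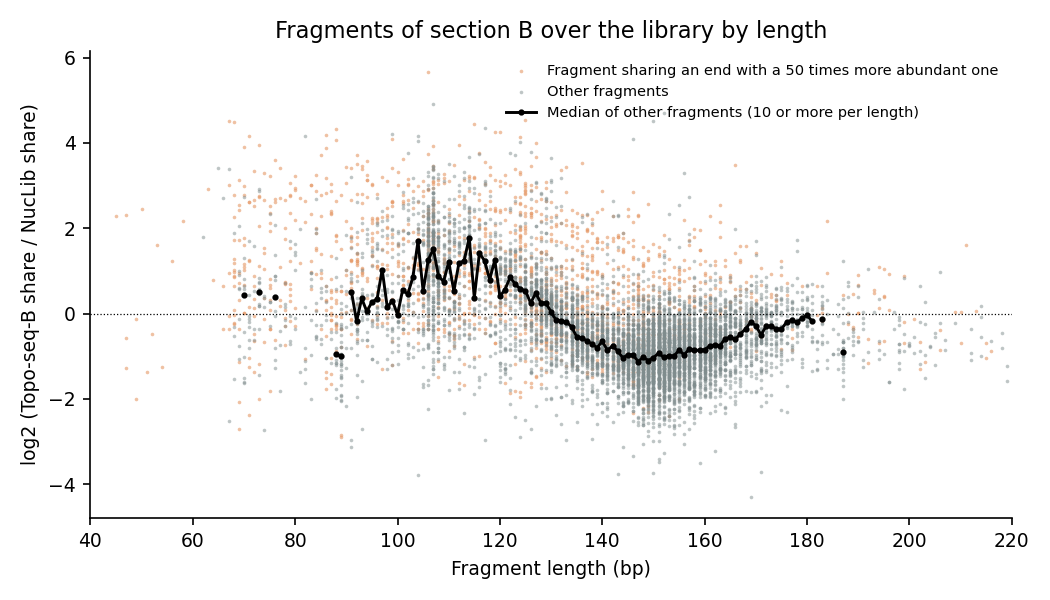
Log2 (Topo-seq-B share / NucLib share) of each fragment (y axis) against its length in bp (x axis). Orange points share an end with a fragment of 50 times as many library reads, grey points are the others, and the black line is the median of the grey points at lengths with 10 or more of them. Up to 100 bp the line varies around 0 and dips to −1.0 at 89 bp (28 fragments). It lies above 0 from 101 to 130 bp and below 0 from 131 bp on. The line is lowest at the canonical core length and comes back towards 0 above 170 bp, except at 187 bp (−0.89, 20 fragments).

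The difference between short and core-length fragments was also seen within loci. Without the minor fragments described below, 176 loci held both fragments under 140 bp and fragments of 140 to 160 bp. The median log2 B/library of the shorter ones was the higher in 144 of these loci (81.8%). Over the 176 loci the median difference was 0.62 (quartiles 0.23 and 1.21). Section A is given for orientation only, as both sections were set against the same library. Fragments of 60 to under 80 bp took 1.59% of reads in section B, 0.0217% in section A and 0.833% in the library. Of these 207 fragments 179 were not in the section A lists. Fragments of 150 to under 160 bp took 23.1% of reads in section B, 41.7% in section A and 33.9% in the library.

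Among unique fragments, 1 per locus with 100 or more reads in each condition, length class and direction went together closely. Of 230 such fragments under 130 bp, 188 were higher and 15 lower, with a median of 1.04. Of 1063 of 130 to under 160 bp, 24 were higher and 934 lower, with a median of −0.96. Of 239 of 160 bp or more, 8 were higher and 169 lower, with a median of −0.67. The fragments described next are the extremes of these 3 classes.

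The highest short fragments lay in the coding sequences of SLG1, ADY2 and SEN34 and just upstream of GLY1. SLG1 encodes a cell-wall stress sensor of the plasma membrane, and its 103 bp fragment had 448 and 462 RPM (reads scaled to equal list totals) in section B, against 76.3 and 65.8 in the library. GLY1 encodes threonine aldolase, and the 66 bp fragment upstream of its start codon had 577 and 585 RPM in section B, against 69.3 and 97.8 in the library. With the runs summed, SLG1 was 6.58-fold higher in section B (95% counting interval 5.64 to 7.73, edgeR adjusted p = 2.6e-25) and GLY1 6.57-fold (5.73 to 7.57, edgeR adjusted p = 3.5e-26). The same direction in all run pairs was a condition for naming these fragments. The 107 bp fragments in ADY2, an acetate transporter gene, and SEN34, a subunit of tRNA splicing endonuclease, were 6.18-fold and 5.75-fold higher. They differed in GC content, 50.5% for ADY2 and 31.8% for SEN34.

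Some short fragments were lower in section B. ELP3 encodes the acetyltransferase subunit of Elongator, and its 67 bp fragment had 89.8 and 85.8 RPM in section B, against 522 and 491 in the library. It was 5.72-fold lower in section B (95% counting interval 5.04 to 6.52, edgeR adjusted p = 1e-25), although it is only 1 bp longer than the GLY1 fragment. Neither was listed in section A. The 129 bp fragment in YLR278C, a gene for a zinc-cluster protein, was the 5th most abundant locus of the library and had 3792 and 3810 RPM in section B, against 12601 and 12867 in the library. It was 3.36-fold lower (3.29 to 3.43, edgeR adjusted p = 1.8e-39). Its section A values were lower still, at 389 and 373. A 109 bp fragment in RIT1, an enzyme that modifies initiator tRNA, was 2.27-fold lower, and a 128 bp intergenic fragment at chrIV:1354731-1354858 was 2.07-fold lower.

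**Figure D3:**
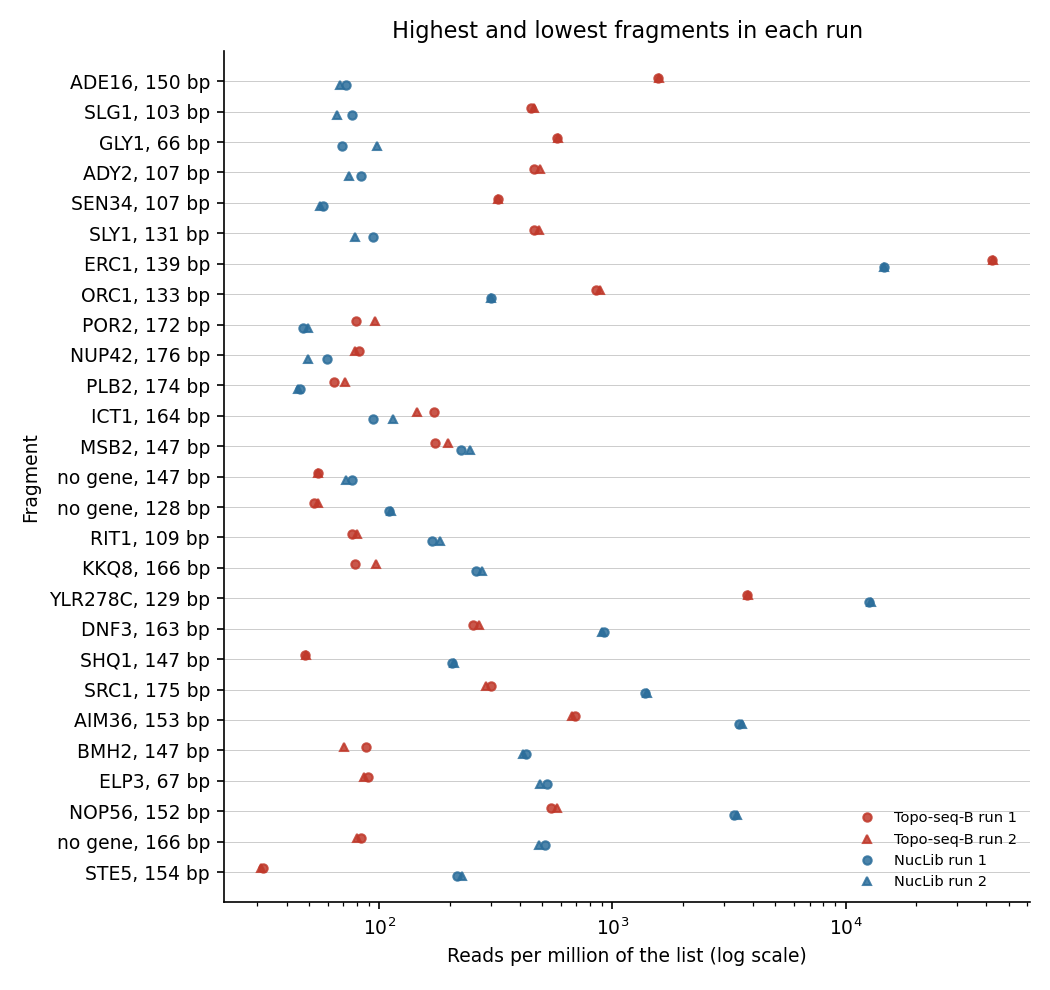
Reads scaled to equal list totals (RPM, x axis, log scale) for the highest and lowest unique fragments of each length class and of the canonical core length (rows, from the highest log2 B/library at the top to the lowest). Red marks Topo-seq-B and blue NucLib, circles run 1 and triangles run 2. The rows were chosen for the same direction in all run pairs, so the 2 red and 2 blue marks of a row cannot overlap. The ADE16 row is farthest apart.

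Near core length few fragments gained. The 150 bp fragment in the 3′ part of ADE16, which encodes an enzyme of purine synthesis, had 1560 and 1582 RPM in section B, against 71.6 and 68.1 in the library. It was 22.7-fold higher (95% counting interval 19.6 to 26.5, adjusted p = 1.6e-38), and its section A values, 1842 and 1808, were as far from the library. A gain in section B alone was seen for the 131 bp fragment at the start of SLY1, a gene of vesicle transport between endoplasmic reticulum and Golgi. It had 459 and 485 RPM in section B, 27.0 and 29.4 in section A, and 93.9 and 78.9 in the library. It was 5.65-fold higher in section B than in the library (4.90 to 6.54, adjusted p = 1.5e-24). The 133 bp fragment in ORC1, the largest subunit of the origin recognition complex, behaved alike with 850 and 882 in section B, 103 and 108 in section A, and 301 and 301 in the library.

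The lowest fragments of 130 to under 160 bp lay in STE5, NOP56, BMH2 and AIM36. STE5 encodes the scaffold of the pheromone kinase cascade, and its 154 bp fragment had 31.7 and 31.1 RPM in section B, against 215 and 227 in the library, 7.11-fold lower (95% counting interval 5.77 to 8.84, adjusted p = 2.2e-21). The 152 bp fragment across the start codon of NOP56, a protein of box C/D small nucleolar particles, had 545 and 580 in section B, against 3337 and 3413 in the library. The fragment in BMH2, which encodes a 14-3-3 protein and whose insert has the canonical core length, had 87.8 and 70.8 in section B, against 425 and 413 in the library. These were 6.0-fold and 5.32-fold lower, and the 153 bp fragment in AIM36, which encodes a mitochondrial protein, was 5.26-fold lower. Each of these fragments was also below the library in section A. There STE5 had 29.4 and 33.0 RPM, NOP56 1667 and 1667, BMH2 186 and 163, and AIM36 767 and 787. At exactly the canonical core length, among unique fragments with 100 or more reads in each condition, the 2 lowest were BMH2, with a log2 B/library of −2.41, and SHQ1, a chaperone gene for box H/ACA particles, with −2.11. The 2 highest that passed the test, in MSB2 and at chrIX:425923-426069, were also below 0 as scaled by list totals, at −0.35 and −0.43. The TMM shift of 0.49 would place both above 0.

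Long fragments spanned a narrower range above 0. The 172 bp fragment in POR2, a mitochondrial porin gene, had 79 and 96.0 RPM in section B, against 47.0 and 49.2 in the library, 1.83-fold higher (95% counting interval 1.48 to 2.27, adjusted p = 1.8e-05). Fragments in NUP42, PLB2 and ICT1 were 1.45-fold to 1.52-fold higher. The lowest long fragment was the telomeric repeat of chromosome III shown above, with 83.7 and 79.9 RPM in section B, against 514 and 485 in the library, 6.06-fold lower (5.31 to 6.93, adjusted p = 6.2e-26). Next came SRC1, an inner nuclear membrane protein, at 4.76-fold lower, DNF3, a phospholipid flippase, at 3.48-fold, and KKQ8 at 3.04-fold. These lowest long fragments were below the library in section A too, the telomeric repeat at 113 and 92.4 RPM.

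The most abundant inserts of the library moved in both directions. The 158 bp LPX1 fragment, from a peroxisomal lipase gene, had 111115 and 112767 RPM in section B, against 99616 and 102714 in the library, a difference of only 1.1-fold. Its share in section A was 232509 and 232963. The 139 bp ERC1 fragment, from a transporter gene of the multidrug and toxin extrusion family, had 42497 and 42932 in section B, against 14658 and 14657 in the library, 2.92-fold higher (95% counting interval 2.88 to 2.95, adjusted p = 1.9e-42). In section A the ERC1 fragment had 38266 and 37798, 2.60-fold above the library, so its gain was not particular to section B. The 7 others among the 10 most abundant loci, besides YLR278C, were lower as scaled by list totals. Log2 B/library was −0.86 for CAR2, −1.56 for IRA2, −1.34 for SEC12, −0.65 for MIC26, −1.74 for PRB1, −0.10 for YHL050C and −0.88 for FCP1, each with an adjusted p of 0.0047 or less.

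Many abundant inserts had minor fragments around them, meaning that 1 of their ends coincided with that of an insert with 50 or more times their library reads. The 1713 minor fragments had a median log2 B/library of 0.60, against −0.65 for the 7413 others. Of the minor fragments 688 were higher (40.2%) and 108 lower (6.30%). Of the others 898 were higher (12.1%) and 3541 lower (47.8%). These counts are bound up with the definition, since few library reads make a fragment minor and also raise its ratio. Of the minor fragments 954 had 10 to under 20 library reads. With 10 reads also required in section B, 550 of all 2018 fragments at that depth were higher and 1 lower. Minor fragments were also shorter, with a median of 126 bp, against 149 bp for the others. In 15 classes of matched length and library reads the median of the minor fragments was higher in 15, for example −0.48 against −0.90 at 140 to under 160 bp with 20 to under 50 library reads.

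The nested families differed in size. LPX1 had 175 minor fragments, of which 166 were higher and 0 lower, with a median of 2.45 while the insert itself was at 0.14, and together they made up 2.20% of section B reads and 0.538% of library reads. CAR2 had 121, with 86 higher and 7 lower and a median of 1.3, beside −0.86 for the insert. ERC1 had 62, all higher, with a median of 2.62. The highest value of all 9126 fragments was among them. This 106 bp fragment begins at the same base as the 139 bp ERC1 insert shown above and had 771 and 785 RPM in section B, against 8.22 and 18.9 in the library, 50.6-fold higher (95% counting interval 37.1 to 71.1, adjusted p = 2.2e-33). Around YLR278C and PRB1 the minor fragments had medians of −0.67 and −0.57, with 3 of 28 and 2 of 32 higher. How minor fragments arose was not tested.

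Fragments rich in GC had higher log2 B/library, and they were also shorter. The 1825 fragments with the highest GC content (51.4% or more) had a median of 0.26 and the 1826 with the lowest (38.4% or less) −0.81, a difference of 1.07. Their median lengths were 131 bp for high GC and 149 bp for low GC. After the median of fragments of the same length was subtracted, the difference was 0.48. Of the high-GC fragments 608 were higher and 295 lower, and of the low-GC fragments 212 were higher and 938 lower. The 2 sets also differed in minor fragments, which are high partly by definition. The high-GC set held 855 minor fragments and lay in 216 loci, the low-GC set 107 in 1536 loci. Without minor fragments the difference was smaller, as given further below. Spearman's rho across the 9126 fragments was 0.32 for GC content, 0.18 after the subtraction, and −0.45 for length. These are descriptions across fragments that share loci and reads.

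**Figure D4:**
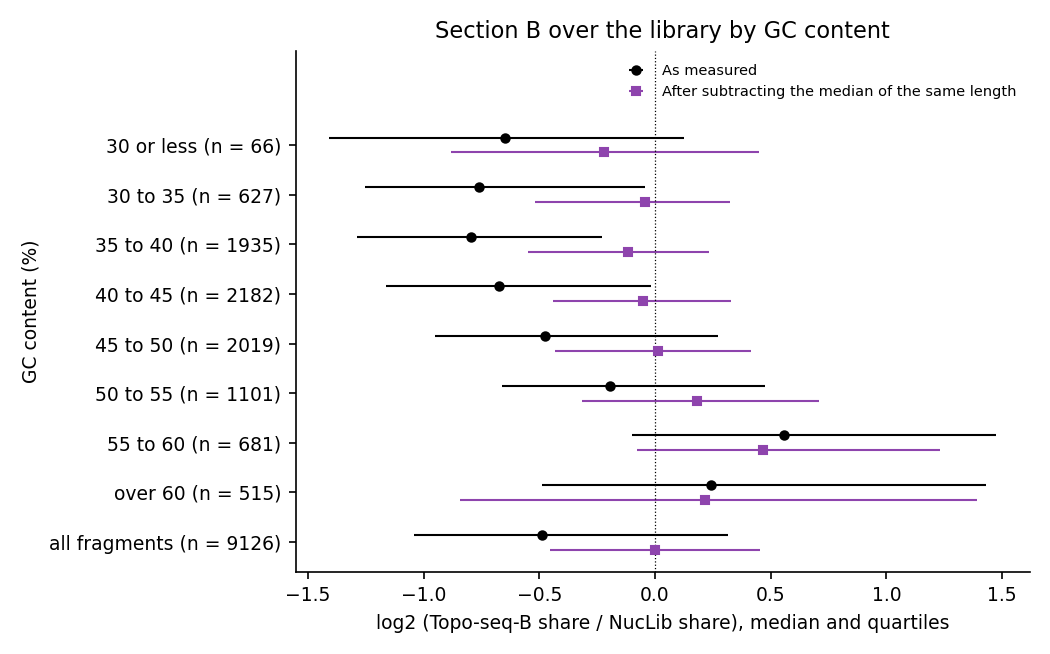
Log2 (Topo-seq-B share / NucLib share) on the x axis for classes of GC content in percent (rows), as median and quartiles. Black circles are the values as measured and purple squares those after the median of the same length was subtracted. The measured medians run between −0.80 at 35 to 40% GC and 0.56 at 55 to 60%, and the span of the squares is smaller.

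Among fragments near core length losses prevailed at low and high GC content. Among unique fragments of 140 to under 160 bp that were not minor, the median was −1.15 at 35 to 40% GC, −1.09 at 40 to 45%, −0.92 at 45 to 50% and −0.85 at 50 to 55%. It was −0.63 at 55 to 60%, where there were 22 fragments. Of the 779 fragments at 40 to 45% GC 628 were lower and 5 higher, and in no GC class of this set did gains outnumber losses.

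Of the dinucleotides, AA/TT had the strongest relation, with a rho of −0.35, and −0.23 after length was subtracted. GC steps followed with 0.26 and 0.22, then AT with −0.21 and −0.08, CG with 0.20 and 0.14, and GA/TC with −0.20 and −0.13. With each locus counted once the measured values were smaller, at −0.20 for AA/TT, 0.0947 for GC, −0.0133 for AT, 0.0419 for CG and −0.12 for GA/TC. AA/TT steps made up 13.3% ± 6.58 of the steps in fragments called higher and 17.8% ± 5.50 in those called lower (mean ± SD over fragments, n = 1586 and 3649). TA steps had a rho of −0.10, which was 0.01 after length was subtracted. Runs of 4 or more A or T (AAAA or TTTT, the same motif on the 2 strands) were present in 55.5% of fragments called higher and 77.7% of those called lower, and in 67.3% of all, which also differ in length. At 140 to under 160 bp they were present in 55.2% of 116 fragments called higher and 80.5% of 2562 called lower. Most of those 116 were minor or repeated fragments. Among unique fragments that were not minor the shares were 48% of 25 called higher and 86.1% of 1880 called lower.

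Region classes differed less than length classes. Classes were set by the fragment midpoint, and the values below are medians of log2 B/library, first as measured and then after the median of the same length was subtracted. Fragments in the first 200 bp of coding sequences had −0.16 and 0.18, those in the last 200 bp −0.74 and −0.05, and those between −0.63 and −0.04. Within 200 bp upstream of a start codon the values were −0.80 and −0.12, and in other intergenic DNA −0.78 and −0.16. Around centromeres (within 5 kb, 50 fragments) they were −0.74 and −0.21, and in Ty elements and long terminal repeats −0.53 and 0.08. Over classes with 100 or more fragments the measured medians spanned 0.64.

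The high value at gene starts rested on minor fragments. Of the 912 fragments in the first 200 bp of coding sequences 331 were higher (36.3%) and 347 lower (38.0%), but 343 of the 912 were minor fragments. The LPX1 and CAR2 inserts, described above with their minor fragments, lie in this class. Relative to all fragments the class stood 0.33 above, and without minor fragments 0.19 below. With each locus counted once it was 0.06 below. Chromosomes VIII and XV, which carry ERC1 and LPX1, had the highest medians of the 16, −0.00 and −0.24. The lowest were −0.79 for VI and −0.77 for V.

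**Figure D5:**
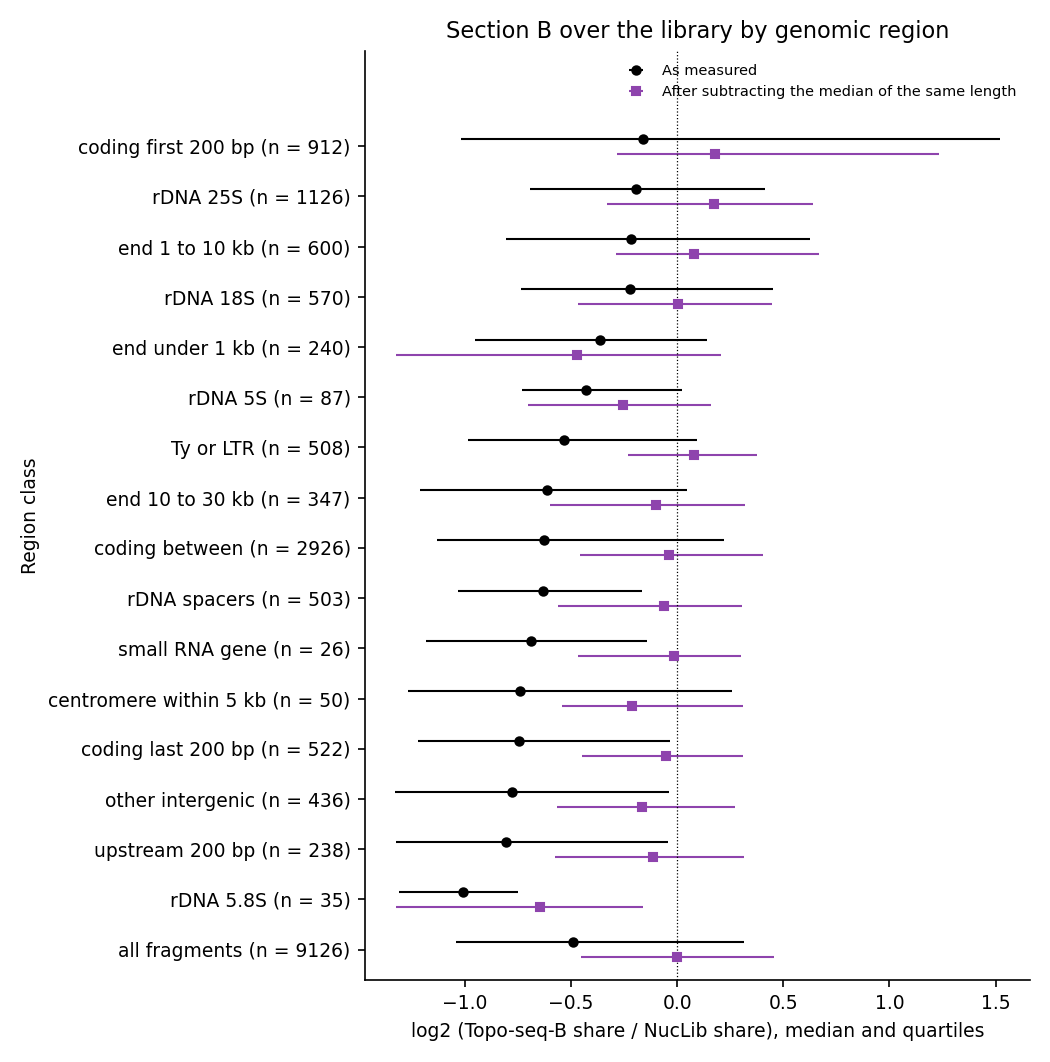
Log2 (Topo-seq-B share / NucLib share) on the x axis for each region class (rows, ordered by the measured median, with all fragments at the bottom), as median and quartiles. Black circles are the values as measured and purple squares those after the median of the same length was subtracted. The squares of most classes lie close to 0, and those of the 5.8S rDNA (−0.65) and the outer 1 kb of chromosomes (−0.47, but 0.23 with each locus counted once) lie lowest.

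The rDNA encodes the ribosomal RNAs in tandem repeats, of which the assembly holds 2 copies of the large unit, so each rDNA fragment stands for many repeats. Reads of identical sequences were divided between the copies in a way that was not given in the sources used here. Fragments were counted at each copy, so the counts below hold some sequences more than once. The 25S gene had −0.19 and 0.17 (1126 fragments, 157 higher and 267 lower) and the 18S gene −0.22 and 0.00 (570 fragments, 106 higher and 135 lower). The spacers, which as classed here also take in Ty and other DNA between the repeats, had −0.63 and −0.06 (503 fragments, 23 higher and 209 lower). The 5.8S gene had the lowest values, −1.01 and −0.65, and of its 35 fragments, which lie in 2 loci, 26 were lower and 0 higher. The most abundant 18S fragment, 100 bp at chrXII:457296-457395, had 6653 and 6437 RPM in section B, against 2084 and 2170 in the library, 3.05-fold higher (95% counting interval 2.96 to 3.14, adjusted p = 4.3e-35). The most abundant 25S fragment, 141 bp at chrXII:462437-462577, had 698 and 683 in section B, against 1215 and 1280 in the library.

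The value of the outer 1 kb of chromosomes depended on how loci were counted. Its 240 fragments had a median of −0.36 as measured and −0.47 after the median of the same length was subtracted, while DNA 1 to 10 kb from an end had −0.22 and 0.08 and DNA 10 to 30 kb from an end −0.61 and −0.10. With each of its 42 loci counted once, the outer 1 kb had −0.37 as measured and 0.23 after the subtraction (37 loci with a value). Within the outer 1 kb, 207 fragments in 15 loci had over 30% CA/TG steps, as telomeric repeats do, with a median length of 120 bp. Their values were −0.36 and −0.69, with 16 higher and 59 lower. The other 33 had a median length of 151 bp and values of −0.47 and 0.39, with 3 higher and 10 lower. The most abundant telomeric fragment, 136 bp at chrXIV:784064-784199, had 146 and 124 RPM in section B, against 542 and 474 in the library, 3.71-fold lower (95% counting interval 3.33 to 4.14, adjusted p = 9.4e-22). Both section B runs lay far below both library runs.

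Of the 8 gene lists each had a median below 0 as measured, and each median but that of chaperone genes came closer to 0 once length was subtracted. Ribosomal protein genes had 28 fragments in 26 genes, of which 4 were higher and 21 lower, with medians of −0.91 as measured and −0.14 after the median of the same length was subtracted. The list was made by prefix and takes in RPP1, a subunit of RNase P. Hexose transporter genes (18 fragments) had 2 higher and 14 lower, with −1.06 and −0.23. The 2 higher, in HXT6 and HXT7, had the same length (125 bp) and GC content (46.4%). Fragments were counted by position, so matching fragments of related genes count separately. This also holds for the YRF1 genes of the subtelomeric families. Topoisomerase and chromatin remodeller genes (21 fragments) had 3 higher and 14 lower, with −0.80 and −0.04. Glycolytic genes (13 fragments in 9 loci, 3 of them minor, 5 higher and 7 lower) had −0.86 and −0.36. Proteasome genes (13 in 11 loci, 3 higher and 8 lower) had −0.89 and −0.15. Chaperone genes (8 in 5 loci, 3 higher and 4 lower) had −0.02 and 0.08. Overlapping fragments of 1 locus thus count more than once in these lists. Histone genes had 4 fragments, 0 higher and 3 lower. Subtelomeric families had 239 fragments, 20 higher and 88 lower, with −0.52 and 0.00. The median length of most of these lists lay at core length, such as 153.5 bp for ribosomal proteins and 150.5 bp for hexose transporters.

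Single genes of the lists held fragments of both kinds. In TOP2, SWR1 and PDC5 the shorter fragment was the higher, but other genes differed. In FLO1, a flocculin gene of the subtelomeric families, a 153 bp fragment had a log2 B/library of 2.34 and a 139 bp fragment −0.67, and in TOP3, which encodes DNA topoisomerase III, a 149 bp fragment had −1.60 and a 129 bp fragment −2.0. In TOP2, which encodes DNA topoisomerase II, a fragment of canonical core length had 61 and 88 reads in section B, against 83 and 157 in the library, a log2 B/library of −1.05. The 115 bp fragment of TOP2 had 107 and 132 reads in section B, against 13 and 11 in the library, which is 2.95. In SWR1, the ATPase that deposits the histone variant H2A.Z, a 148 bp fragment had −0.81 and a 116 bp fragment 2.07. In PDC5, a pyruvate decarboxylase gene, a 132 bp fragment had −0.63 and a 111 bp fragment 1.77.

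The read minimum bore on the balance of gains and losses. Fragments with exactly 10 library reads (289) had a median of 0.71, and those with exactly 9, which were left out although they had 10 or more in section B (325), had 0.93. By library reads, the median was 0.28 at 10 to under 20 reads (550 higher and 1 lower), −0.48 at 20 to under 50 and −0.84 at 100 to under 300. Some 10998 fragments had 10 or more reads in section B and under 10 in the library, with a median length of 106 bp. In the other direction 1836 fragments had 10 or more reads in the library and under 10 in section B, with a median length of 148 bp.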

How the data were processed

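Nucleosome DNA inserts were sequenced in 2 flow-cell lanes per condition. The authors trimmed the read pairs, aligned them to the R64 genome with Bowtie 1.1.2, took alignment and size statistics with SAMtools and Picard (their processing notes also name BWA) and deposited raw counts of reads per distinct fragment and run, not normalized, in lists of 65536 lines. Starts were taken as counted from 0, since starts of 0 occur and ends reach the last base of R64 chromosomes. How reads with several equal positions were placed and whether duplicates were removed are not given in the sources used here. Amplified reads are not independent molecules, so counting intervals (95%, exact binomial, from reads summed over runs) cover counting error only.

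Counts were matched by chromosome, start and end and scaled by list totals. Fragments with 10 or more reads in each condition were tested with edgeR 4.0.16 (quasi-likelihood, normalization factors of 1, Benjamini-Hochberg over all 9126), which was also tested on simulated data. DESeq2 1.42.0 was an alternative. Lengths were tested on summed reads where each condition had 100 or more. Annotation and sequences came from RefSeq R64. Classes of fewer than 10 fragments per length got no length-subtracted value. Named fragments were, of unique sequences with 100 or more reads in each condition, adjusted p under 0.05 and 1 sign in all 4 run pairs, the 4 highest and 4 lowest of 3 length classes and 2 each at the canonical core length, with the 10 most abundant loci and the most abundant of each region class. The 106 bp ERC1 fragment, the TOP2, TOP3, SWR1, PDC5 and FLO1 fragments and those outside the read minimum were named after their values were seen. The members and lists were chosen with earlier results of these data known.

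Run numbers mark shared lanes, per the study's methods, and so pair the samples. Over 3817 fragments with 50 or more reads in each condition, deviations of same-numbered runs correlated at r = 0.12. With the replicate block 1614 fragments were higher and 3691 lower, and 5214 calls were shared with the fit without it.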

Additional observations from a re-analysis of the deposited data

Results flagged for a closer look

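Fragments with 10 or more reads in section B that were in neither library list lay outside the comparison, since it required 10 reads in each condition. There were 4917 of them, with a median length of 91 bp, and they held 4.46% of section B reads. The 2 most abundant were 46 bp fragments in the rDNA, at chrXII:467151-467196 with 17472 section B reads and at chrXII:458014-458059 with 17198. They have the same sequence. The runs gave 7784 and 9688 reads for one and 7466 and 9732 for the other, and neither was in a library or section A list. The library lists end at a count of 1 and do not show that an unlisted fragment had no read, so no fold is given. Other short fragments of this kind lay in FKH2 (46 bp, 1003 and 1314 reads), MIY3 (19 bp, 956 and 1138 reads) and NCB2 (29 bp, 903 and 1163 reads). These were named after their values were seen, and their source was not tested.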

How the results depend on the processing

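The p-values cover the spread between sequencing lanes of the same DNA, the gel was run once, and fragments near the read minimum had few library reads. The count of fragments higher in section B was 3487 with no read minimum, 5214 with 20 or more reads over the 4 runs, 611 with 50 or more in each condition and 923 without minor fragments, against 1586 as reported. The count lower was 2010 with TMM, 977 with DESeq2 and 2315 with 50 or more reads, against 3649. Leaving out 1 run at a time gave 1407 to 1465 higher and 2882 to 3469 lower fragments, and 78 to 90 higher and 47 to 64 lower lengths, where the lone run is assumed to vary like the other condition. The replicate block gave 90 higher and 58 lower lengths. With each locus counted once, 50 of 105 lengths were higher. Leaving out rDNA and the outer 10 kb of chromosomes, chosen after seeing the data, gave 1147 higher and 2761 lower fragments. Where a setting changed a value, the cause was not tested.

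The length difference of 1.19 kept its direction in each setting, at 1.26 in run 1, 1.09 with 50 reads, 2.42 with 20 reads over the 4 runs, 1.29 with identical sequences summed, 1.03 without minor fragments, 1.26 with each locus once, and 1.49 and 0.62 with the border at 130 and 150 bp. The GC difference of 1.07 did so too, in the same settings up to each locus once at 1.13, 0.82, 1.87, 1.19, 0.74 and 0.70, with 1.09 in run 2, 0.48 within length and 1.68 without rDNA and chromosome ends. The AA/TT rho of −0.35 was −0.31, −0.27, −0.31, −0.37, −0.26 and −0.20 in those settings, −0.23 within length and −0.33 without rDNA and ends. The span of region medians of 0.64 was 0.77 in run 1, 1.55 with 20 reads over the 4 runs, 0.98 with identical sequences summed and 1.45 with each locus once, where the highest class, 25S rDNA, held 8 loci.

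Some classes changed sign. The rho of AG/CT was −0.0487 with each locus once, and that of TA 0.00367 with each locus once and 0.0138 within length. Relative to all fragments, Ty and LTR stood at 0.0136 with 50 reads, 0.12 without minor fragments, 0.19 with each locus once and 0.0809 within length. Coding sequence between the gene ends stood at 0.13 with 20 reads over the 4 runs, and the first 200 bp at −0.19 without minor fragments and −0.0591 with each locus once. DNA 10 to 30 kb from an end stood at 0.0672 with each locus once, the outer 1 kb at −0.24 with 20 reads and −0.47 within length, and rDNA spacers at 0.0436 with 50 reads and 0.13 with each locus once. Of the gene lists, glycolysis stood at 1.78 with 20 reads, histones at 0.15 within length, and subtelomeric families at 0.11 with 50 reads, 0.19 with identical sequences summed, 0.10 without minor fragments, 0.17 with each locus once and 0.00307 within length. With each locus once, topoisomerases and remodellers stood at 0.0103 and chaperones at −0.22.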

Other observations

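Among loci under 50 library reads, 6 with the highest log2 B/library were noted after their values were seen, and their section A values fell into both patterns. The 152 bp fragment in ISR1 had 124 and 133 RPM in section B, 149 and 157 in section A, and 4.70 and 5.15 in the library. The 82 bp fragment upstream of YML108W had 226 and 242 in section B, 169 and 170 in section A, and 12.9 and 13.2 in the library. The 146 bp fragment in TES1 had 80.4 and 78.3 in section B, 27.5 and 28.9 in section A, and 1.17 and 6.29 in the library. These 3 were above the library in both sections, as the ADE16 fragment was. The 117 bp fragment in SYG1 had 91.9 and 81.5 in section B, 3.86 and 7.07 in section A, and 5.87 and 3.43 in the library. The 99 bp fragment in LOS1 had 81.7 and 101 in section B, 7.23 and 10.0 in section A, and 7.04 and 4.0 in the library. The 104 bp fragment at chrVIII:456059-456162 had 103 and 116 in section B, 6.27 and 11.8 in section A, and 3.52 and 7.44 in the library. These 3 were high in section B alone.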
